A study of Mus musculus with 3 samples.

Results

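The genes described here encode the proteins of the mitochondrial ribosome. They were taken as every gene whose symbol is Mrpl or Mrps followed by a number and at most 1 letter, in any of the 3 deposited tables. That rule found 76 of the 15503 genes in the tables, 47 named for the large subunit (Mrpl) and 29 for the small subunit (Mrps). RNA from the left ventricle of C57BL6J mice was sequenced in 3 libraries, each a pool of RNA from 3 mice. Egln1_floxed came from Egln1 floxed mice without Cre, which the series text calls wild type. Egln1_Tie2Cre came from Egln1Tie2Cre mice, and Egln1_Hif2a_Tie2Cre from mice labelled Egln1/Hif2aTie2Cre. Cre was driven by the Tie2 promoter, a promoter of the endothelium that blood-forming cells use too, so cardiomyocytes were not its target. The labels give no age for the mice.

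Mitochondria keep a small genome that encodes core subunits of the respiratory chain and the ATP synthase, and they translate it on their own ribosome. Its RNA is made from the mitochondrial genome, while all of its proteins are encoded in the nucleus, made in the cytosol and imported. Many of these proteins have counterparts in bacterial ribosomes, and others arose in the mitochondrial lineage. The heart is among the tissues richest in mitochondria, and inherited defects of several of these proteins cause cardiomyopathy in people.

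With 1 library per genotype there is no replicate check on any value here, and no test of a difference was made. Levels are in FPKM, the number of sequenced fragments corrected for the length of the transcript and the size of the library, and the depth is unknown. Egln1, which encodes the oxygen sensor PHD2, had an FPKM of 129.5 in Egln1_floxed, 95.7 in Egln1_Tie2Cre and 129.0 in the library labelled Egln1_Hif2a_Tie2Cre, where it was not lower. Epas1, which encodes Hif2a, had 77.4, 65.0 and 54.5 in that order. Of the cardiomyocyte markers, 9 of 10, among them Myh6, Tnnt2 and the ventricular light chain Myl2, had a value in every library and summed to between 48558 and 61186 FPKM. Most of them are expressed in atria as well. The summed FPKM of 4 atrial markers (Myl7, Sln, Nppa and Myl4) was 214 in Egln1_floxed, 1986 in Egln1_Tie2Cre and 347 in Egln1_Hif2a_Tie2Cre, and that of 6 macrophage markers was 189, 135 and 283. The atrial markers differed unequally: their log2 ratios of FPKM + 1 for Egln1_Tie2Cre over Egln1_floxed ran from 0.39 to 3.53, with a median of 1.27. For Egln1_Hif2a_Tie2Cre over Egln1_Tie2Cre, 3 of the 4 were below 0 and 1 was above. Sums of 7 endothelial markers (330.2, 379 and 424) and 7 fibroblast markers (381, 383 and 441) lay closer together. The part of these differences in the values below was not tested. In bulk tissue, fewer cells of a type and less RNA per cell cannot be told apart.

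The lower quartile of the members was 28.3 FPKM in Egln1_floxed, 24.9 in Egln1_Tie2Cre and 31.4 in Egln1_Hif2a_Tie2Cre. The lowest member had 2.75, 1.31 and 2.23 in that order. The median member had an FPKM of 46.6 in Egln1_floxed, 45.1 in Egln1_Tie2Cre and 54.7 in Egln1_Hif2a_Tie2Cre. Large subunit genes had medians of 52.6, 54.4 and 57.4, above the 43.8, 37.4 and 48.4 of small subunit genes. Summed over members, FPKM came to 4485 in Egln1_floxed, 4448 in Egln1_Tie2Cre and 5676 in Egln1_Hif2a_Tie2Cre. Of the 76 members, 75 were listed in all 3 tables, and Mrps23 was listed in 1 table only, with 2.75 in Egln1_floxed and 2.23 in Egln1_Hif2a_Tie2Cre. All 76 passed the filter on low values, a mean of 1 FPKM or more in the libraries compared.

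**Figure D1:**
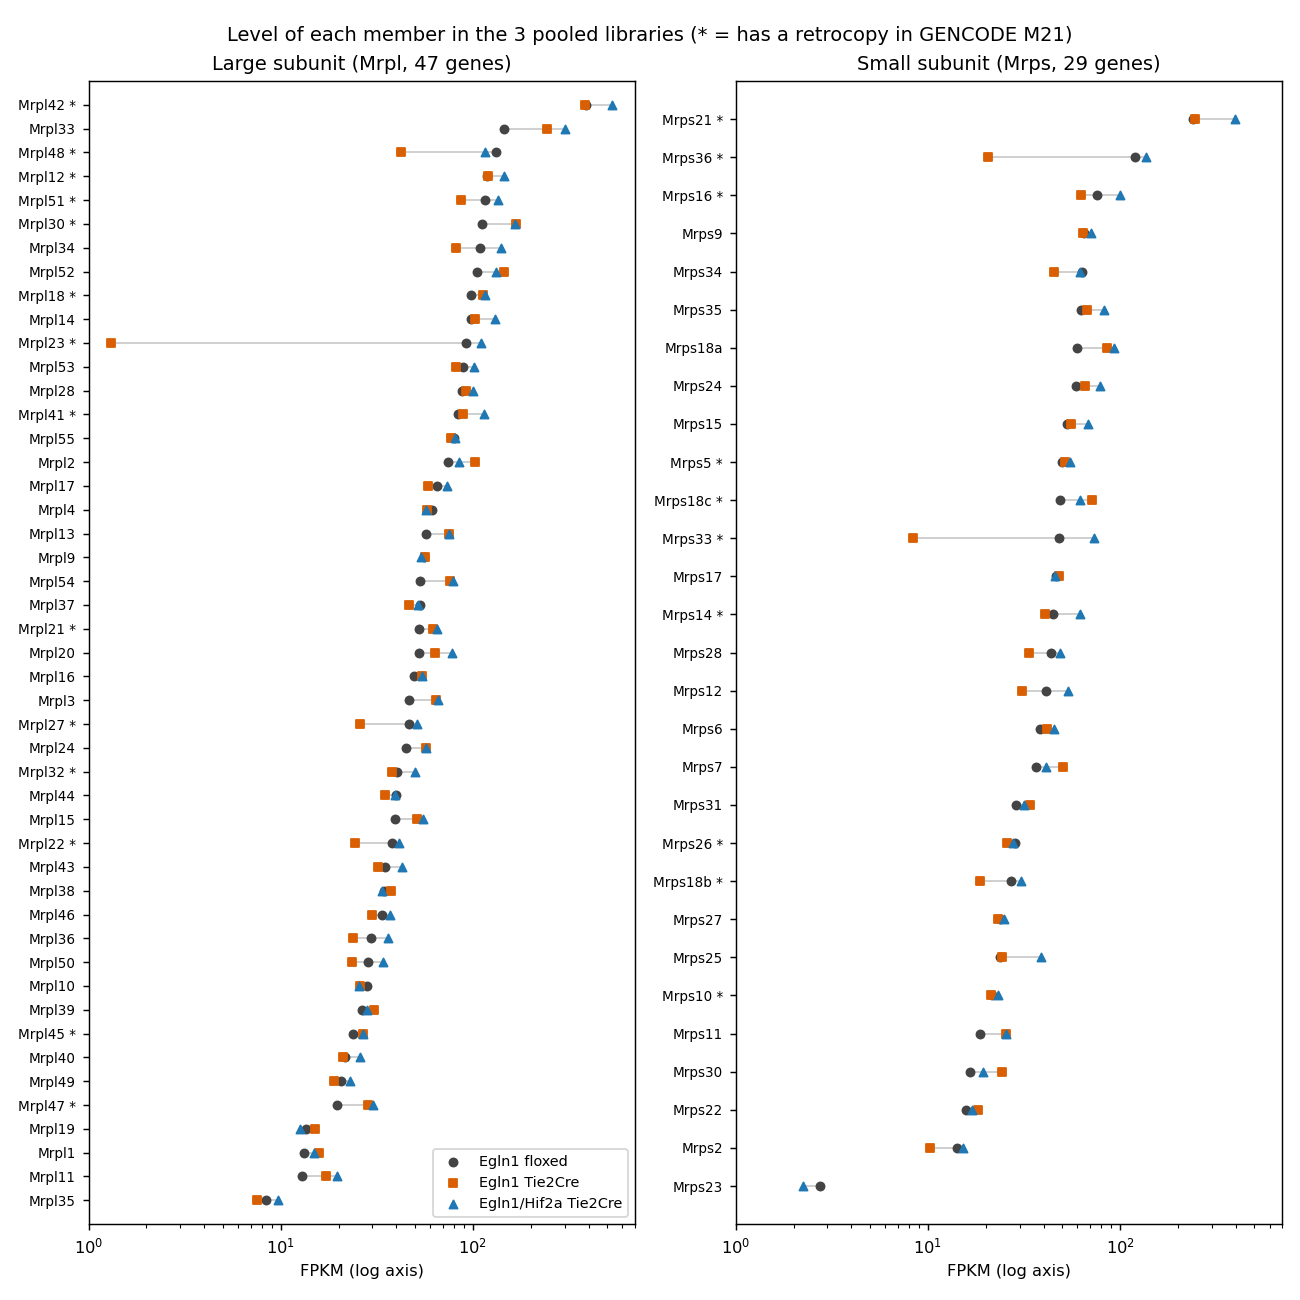
FPKM on a log axis of each of the 47 Mrpl genes (left) and 29 Mrps genes (right), ordered by the Egln1_floxed value, with 1 point per library and a star on members with a retrocopy. In most rows the points lie close together, and the Egln1_Tie2Cre squares of Mrpl23, Mrpl48, Mrps36 and Mrps33 stand far to the left.

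The highest member of all was Mrpl42, a large subunit protein without a bacterial counterpart, with an FPKM of 387 in Egln1_floxed, 385 in Egln1_Tie2Cre and 528 in Egln1_Hif2a_Tie2Cre. Mrpl33, whose bacterial counterpart is among the smallest proteins of the large subunit, had 145, 242 and 302 in the same order. Next among large subunit genes in Egln1_floxed was Mrpl48, with 131. Mrps21 led the small subunit with 239.8, 246.9 and 396.6. After it came Mrps36 with 119.8 and Mrps16 with 75.9 in Egln1_floxed. At the other end of the large subunit stood Mrpl35 with 8.41, 7.57 and 9.71, Mrpl11, a protein at the base of the ribosomal stalk, with 12.9, 17.3 and 19.6, and Mrpl1 with 13.2, 15.9 and 14.8. The lowest small subunit genes after Mrps23 were Mrps2 with 14.1, 10.2 and 15.2 and Mrps22 with 15.8, 18.1 and 16.9. Most of these proteins are present as a single copy per ribosome, while the mRNA levels of the highest and lowest member differed 141-fold in Egln1_floxed.

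The order of the members by level was much the same in Egln1_floxed and Egln1_Hif2a_Tie2Cre. Across 75 genes the Pearson correlation of log2 FPKM was 0.98 between those libraries, 0.73 between Egln1_floxed and Egln1_Tie2Cre and 0.74 between Egln1_Tie2Cre and Egln1_Hif2a_Tie2Cre. These are correlations across genes, which are not independent replicates and share their lengths and sequence in every library. Over the 51 members for which no retrocopy was found (defined next) the same correlations were 0.97, 0.95 and 0.96.

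A retrocopy is an intronless copy of an mRNA that was written back into the genome, and it can be near-identical to its parent gene. Coding sequences of all members were aligned to the transcripts of GENCODE M21 (GRCm38). A copy was called at 90% identity or more over at least 50% of the coding sequence, at a separate locus. Of the 76 members, 24 had such a copy, 14 of them Mrpl and 10 Mrps genes. The alignment found 43 copies, all annotated as pseudogenes, of which only 5 were listed in a deposited table. Values of these 24 members are uncertain, because reads from a gene and from its copy can be exchanged between them, and the sources used here do not say how the authors treated such reads.

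Between Egln1_Tie2Cre and Egln1_floxed the mitochondrial ribosome as a whole was level. The median log2 ratio of FPKM + 1 was 0.04 over 75 members, 0.03 over 47 Mrpl and 0.04 over 28 Mrps genes, beside 0.02 over all 11978 genes kept. Set against genes of like transcript length, the member median was -0.065. Of the members, 40 had a ratio above 0 and 35 below, beside 51.9% and 48.1% of all genes. Members at least 1.5-fold higher in Egln1_Tie2Cre numbered 2, where 9.46% of all genes were, and those at least 1.5-fold lower numbered 6, where 8.73% of all genes were. All 6 of the lower members (Mrpl22, Mrpl23, Mrpl27, Mrpl48, Mrps33 and Mrps36) had a retrocopy. Of the 51 members without one, 0 were 1.5-fold lower and 1 was 1.5-fold higher. Among the 9883 coding genes without a copy, 500 were lower and 762 higher by that measure. Of the 24 members with a copy 6 were lower, beside 452 of 1330 coding genes with a copy. At 2-fold, 0 members were higher (3.93% of all genes) and 4 lower (3.84%).

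**Figure D2:**
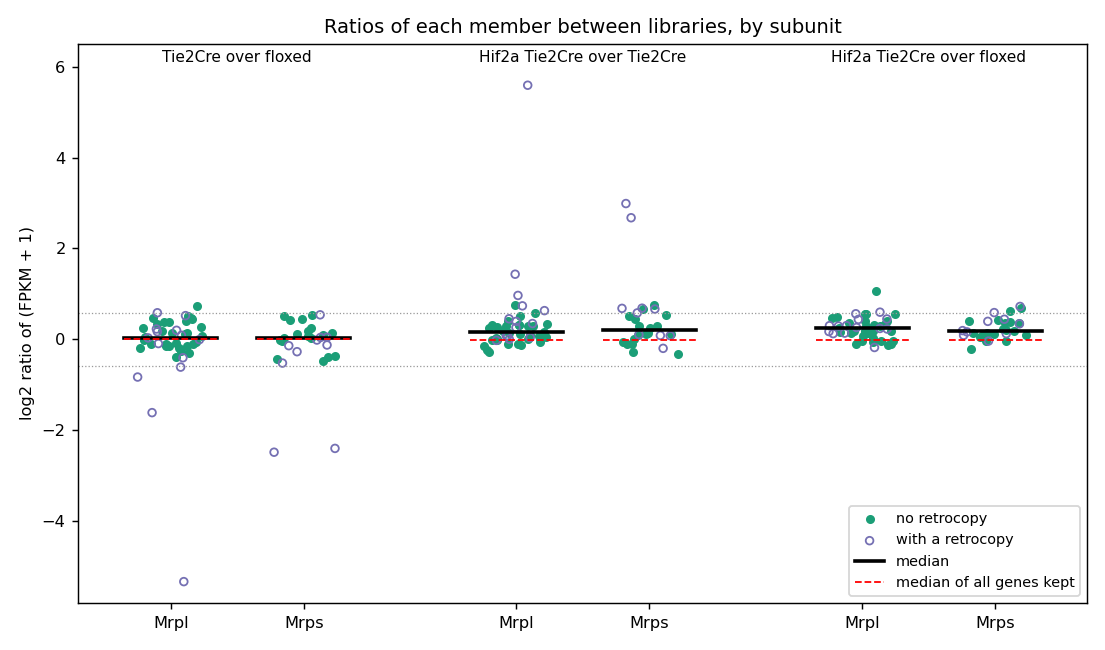
The log2 ratio of FPKM + 1 of each member in the 3 comparisons between libraries, by subunit, with filled points for members without a retrocopy and open points for members with one. Black bars are medians, red dashed bars the median of all genes kept and dotted lines 1.5-fold. In the comparisons that hold Egln1_Tie2Cre the far points are open, and over Egln1_floxed the Egln1_Hif2a_Tie2Cre medians (0.24 for Mrpl, 0.19 for Mrps) lie above that of all genes (-0.0038).

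The sequences of 5 members and a retrocopy of each are printed because the largest gaps of Egln1_Tie2Cre sat on 4 of them and because the copies of Mrpl23, Mrps36 and Mrpl42 have values of their own in the tables. Each line holds 60 bases of the aligned coding sequence, 5′ to 3′, and capitals mark bases that differ between the member and its copy. Mrpl23 (chr7:142532686-142540747, plus strand) and Mrpl23-ps1 (chr2:74591330-74591909, minus strand) differed at 0 of 438 aligned bases, of which bases 1 to 60 are shown.
Mrpl23: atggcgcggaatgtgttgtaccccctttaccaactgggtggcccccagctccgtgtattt
Mrpl23-ps1: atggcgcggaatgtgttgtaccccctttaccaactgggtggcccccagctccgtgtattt
Mrps33 (chr6:39801804-39810988, minus strand) and Gm5776 (chr7:54412158-54412478, minus strand) differed at 1 of 318 bases, which is the last base of the window from base 112 to 171.
Mrps33: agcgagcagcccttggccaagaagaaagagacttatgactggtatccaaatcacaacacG
Gm5776: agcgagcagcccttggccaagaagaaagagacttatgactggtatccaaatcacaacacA
Mrps36 (chr13:100735955-100744659, minus strand) and Mrps36-ps1 (chr17:53866715-53867020, minus strand) differed at 2 of 306 bases, both between base 69 and base 128.
Mrps36: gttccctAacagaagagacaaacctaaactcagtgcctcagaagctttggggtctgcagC
Mrps36-ps1: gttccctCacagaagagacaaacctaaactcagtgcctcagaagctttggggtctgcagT
Mrpl48 (chr7:100545751-100608301, minus strand) and Mrpl48-ps (chr4:88599175-88599810, minus strand) differed at 12 of 633 bases, 5 of them between base 349 and base 408.
Mrpl48: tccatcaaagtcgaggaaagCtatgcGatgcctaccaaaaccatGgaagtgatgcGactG
Mrpl48-ps: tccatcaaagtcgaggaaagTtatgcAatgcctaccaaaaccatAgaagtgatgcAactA
Mrpl42 (chr10:95480805-95501940, minus strand) and Gm6419 (chr10:74862988-74863416, minus strand) differed at 16 of 426 bases, 4 of them among the first 60.
Mrpl42: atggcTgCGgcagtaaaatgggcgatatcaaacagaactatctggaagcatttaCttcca
Gm6419: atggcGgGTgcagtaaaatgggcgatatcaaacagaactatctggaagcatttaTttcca

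Mrpl23, a protein at the exit of the peptide tunnel, had an FPKM of 92.0 in Egln1_floxed, 1.31 in Egln1_Tie2Cre and 110.4 in Egln1_Hif2a_Tie2Cre. Its copy Mrpl23-ps1, identical in all coding bases shown above, had 0.265, 78.6 and 0.205. Member and copy were thus high in opposite libraries. Their sum was 92.3 in Egln1_floxed, 79.9 in Egln1_Tie2Cre and 110.6 in Egln1_Hif2a_Tie2Cre, and the log2 ratio of Egln1_Tie2Cre over Egln1_floxed was -5.33 for the member and -0.21 for the sum. FPKM is divided by transcript length, and a gene and its copy differ in length. This sum and those below are thus not counts of shared reads, because a read weighs more in the shorter transcript.

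Mrps36 carries a name of the small subunit but is known as a component of the 2-oxoglutarate dehydrogenase complex of the citric acid cycle. It had an FPKM of 119.8 in Egln1_floxed, 20.6 in Egln1_Tie2Cre and 137.0 in Egln1_Hif2a_Tie2Cre. Its copy Mrps36-ps1 had 46.98 in Egln1_Tie2Cre and 0.0828 in Egln1_Hif2a_Tie2Cre, and no value was listed for it in Egln1_floxed. With the copy added, Egln1_Tie2Cre came to 67.6, still below the other libraries. This gene has 8 copies, more than any other member, and only 1 of them was listed.

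Mrpl51 and Mrpl42 did not follow Mrpl23, because their own values stayed high in Egln1_Tie2Cre. Mrpl51 had 115, 86.7 and 135 in the order above, and its copy Gm14017 had 0.253, 35.9 and 0.190. The sum of both was 115, 123 and 135. The Mrpl51 transcript has 3427 bases and the coding sequence, which the copy matches, has 384. Mrpl42 had nearly equal values of its own in Egln1_floxed and Egln1_Tie2Cre, given above, while its copy Gm6419 had 0.201, 99.5 and 0.152. The sum of both was 387, 485 and 528. For Egln1_Tie2Cre over Egln1_floxed the log2 ratio was -0.0054 for the member and 0.32 for the sum, with the limit on sums given above. In each of the 4 cases with a value in Egln1_Tie2Cre the copy was above 35 FPKM there and below 0.3 wherever it was listed in another library. The fifth listed copy, Gm12774 of Mrpl27, had 0.432 in Egln1_floxed and 0.164 in Egln1_Hif2a_Tie2Cre, with no value listed for Egln1_Tie2Cre.

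No copy of Mrps33, Mrpl48 or Mrpl22 was listed. Mrpl27 has 3 copies, and the closest, Gm6304 with 98.9% identity, was not listed. Its listed copy Gm12774, with 91.7% identity over 62.6% of the coding sequence, had no value in Egln1_Tie2Cre. Mrps33, a small subunit protein without a bacterial counterpart, had 48.3 in Egln1_floxed, 8.34 in Egln1_Tie2Cre and 73.1 in Egln1_Hif2a_Tie2Cre. Mrpl48, which sits in the central protuberance of the large subunit, had 131, 42.2 and 116. Mrpl27, near the catalytic centre, had 46.5, 25.7 and 51.2. Mrpl22, at the exit tunnel, had 37.8, 24.4 and 41.4. In all 4 the Egln1_Tie2Cre value was the lowest and the other libraries lay within 1.51-fold of each other. Mrpl48 also shares an exon with Rab6a and Mrpl27 with Eme1 in the annotation, 2 of 23 members that share one with another coding gene.

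The gaps sat on members whose closest copy was most like the gene, by a division made after the values were seen. The 13 members with a copy of at least 97% identity had a median log2 ratio of -0.52 for Egln1_Tie2Cre over Egln1_floxed, and they included all 6 of the lower members. The 11 with a less similar copy had a median of 0.03, and 0 of them were 1.5-fold lower. Among all coding genes with a copy the median was -0.23 (1330 genes), and among those without one it was 0.03 (9883 genes). The same 13 members had a median of 0.19 for Egln1_Hif2a_Tie2Cre over Egln1_floxed. Mrpl21, Mrpl41, Mrps5, Mrps10 and Mrps21 also had a copy of at least 97% identity, and each had a ratio within 0.25 of 0 between Egln1_Tie2Cre and Egln1_floxed.

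**Figure D3:**
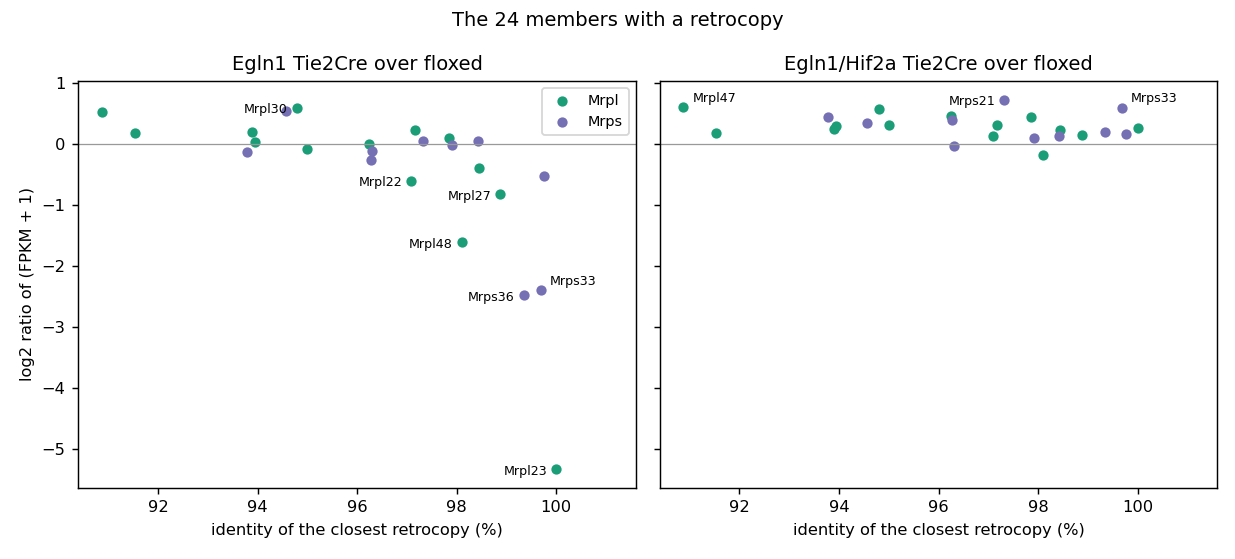
The log2 ratio of FPKM + 1 of the 24 members with a retrocopy, against the percent identity of the closest copy, for Egln1_Tie2Cre (left) and Egln1_Hif2a_Tie2Cre (right) over Egln1_floxed, with names on members at least 1.5-fold apart. On the left the 6 low members all lie at 97% identity or more, down to -5.33 for Mrpl23 at 100%, and on the right all points lie between -0.18 and 0.72.

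Only 2 members were at least 1.5-fold higher in Egln1_Tie2Cre than in Egln1_floxed. Mrpl33 had 242 against 145, 1.67-fold higher, and its value in Egln1_Hif2a_Tie2Cre was higher again at 302. Mrpl30, which has 4 retrocopies, had 112 in Egln1_floxed, 169 in Egln1_Tie2Cre and 166 in Egln1_Hif2a_Tie2Cre, a log2 ratio of 0.5853 for Egln1_Tie2Cre over Egln1_floxed where the threshold of 1.5-fold is 0.5850. Just short of it stood Mrps18c with 0.54 and Mrps30 with 0.53.

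Among the 51 members without a copy, the ratio of Egln1_Tie2Cre to Egln1_floxed went with the number of exons, in classes chosen after the values were seen. The 12 members with 2 or 3 exons had a median log2 ratio of -0.21, and 9 of them were below 0. Those with 4 to 5 exons (21 members) had a median of 0.08, and those with 6 or more (18 members) had 0.19, with 14 above 0. Coding genes without a copy followed the same order, with medians of -0.18 (961 genes), -0.06 (1300 genes) and 0.08 (7420 genes). Among members the low end held Mrps34 with 63.4, 45.1 and 62.0 FPKM, Mrps2 with 14.1, 10.2 and 15.2 and Mrpl34 with 108, 82.0 and 139, in the order Egln1_floxed, Egln1_Tie2Cre and Egln1_Hif2a_Tie2Cre. Mrps2 has 4 exons and so lay below its class, and Mrpl54, which has 3, lay above its own with 53.3, 76.2 and 79.2. Between Egln1_Hif2a_Tie2Cre and Egln1_floxed the classes were closer, with medians of 0.27, 0.18 and 0.15, beside 0.06, 0.05 and -0.05 among coding genes. A part of RNA integrity or library preparation in this order was not tested.

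**Figure D4:**
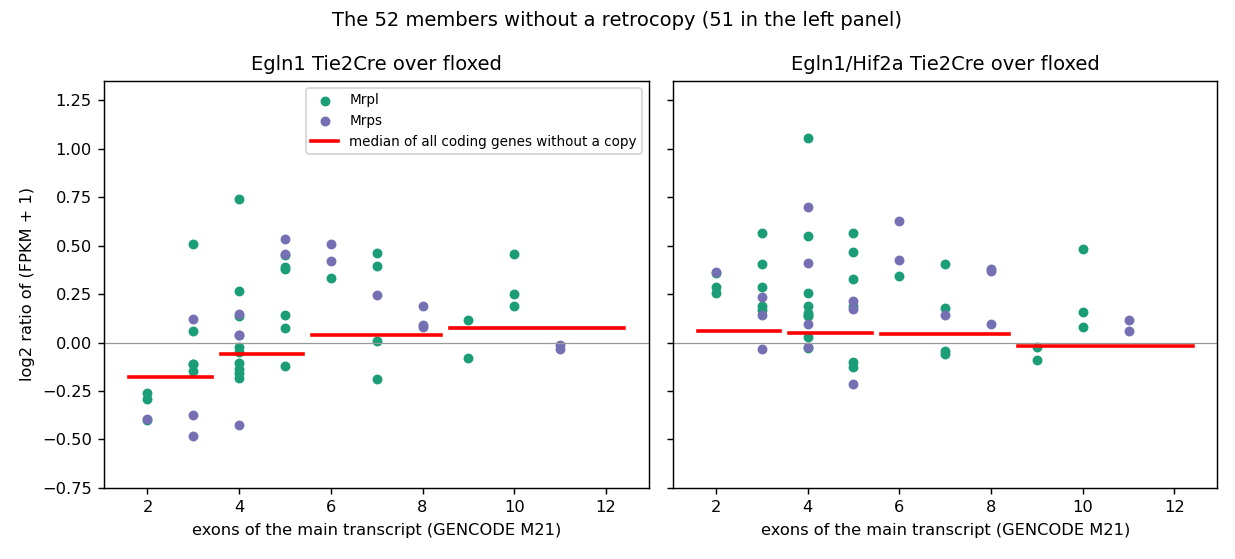
The log2 ratio of FPKM + 1 of the members without a retrocopy against the number of exons of their main transcript, for Egln1_Tie2Cre (left, 51 members) and Egln1_Hif2a_Tie2Cre (right, 52 members) over Egln1_floxed. Red bars give the median of all coding genes without a copy in each exon class, which runs from -0.18 at 2 to 3 exons to 0.07 at 9 to 12 on the left and lies near 0 on the right.

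By role, large subunit proteins with a bacterial counterpart had a median log2 ratio of 0.11 for Egln1_Tie2Cre over Egln1_floxed (30 genes), and those without one had -0.10 (17 genes). In the small subunit the medians were 0.04 (16 genes) and -0.03 (9 genes), with Mrps18a, Mrps30 and Mrps36 left out. Mrps18b was counted among the 9, although its paralogue Mrps18c was counted among the 16. Without members that have a copy, the large subunit values were 0.14 (21 genes) and -0.11 (12 genes). These differences are small beside the spread within a class, whose quartiles were -0.11 and 0.37 among the 30.

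In the library labelled Egln1_Hif2a_Tie2Cre most members were slightly higher than in Egln1_floxed. Of 76 members, 64 had a ratio above 0, 39 of 47 Mrpl and 25 of 29 Mrps genes, where 49.4% of all genes did. The median log2 ratio was 0.22 over all members, which is 1.17-fold, 0.24 over Mrpl and 0.19 over Mrps genes. Members at least 1.5-fold higher numbered 6, beside 4.42% of all genes, and 0 were 1.5-fold lower, beside 3.28% of all genes. At 2-fold 1 was higher (0.538% of all genes) and 0 lower (0.437%). Among the 52 members without a copy the median was 0.19, and 42 were above 0. Genes of like transcript length also lay above 0 in this comparison: the 3127 coding genes without a copy whose length fell within the quartiles of the members had a median of 0.09, and 63.2% of them were above 0. With each gene centred on genes of like length, the member median was 0.051.

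The 6 members past 1.5-fold were Mrpl33, Mrpl47, Mrps18a, Mrps21, Mrps25 and Mrps33. Centred on genes of like transcript length, Mrps18a (0.31), Mrps21 (0.40) and Mrps33 (0.27) fell below the threshold of 0.585. Mrpl33 (0.73), Mrpl47 (0.65) and Mrps25 (0.83) stayed past it, and Mrpl11 (0.61) joined them. Mrpl33 was 2.08-fold higher, from 145 to 302 FPKM. Mrps21, whose bacterial counterpart belongs to the small subunit, went from 239.8 in Egln1_floxed and 246.9 in Egln1_Tie2Cre to 396.6 in Egln1_Hif2a_Tie2Cre, 1.65-fold above Egln1_floxed. Mrps25, found only in mitochondrial ribosomes, had 23.6, 24.3 and 39.0 in that order and shares an exon with Nr2c2. Mrps21 and Mrps25 were near equal in Egln1_floxed and Egln1_Tie2Cre. In Egln1_Tie2Cre, Mrpl33 was already 1.67-fold above Egln1_floxed, and Mrps33 was 5.79-fold below it. Mrps18a had 59.8, 85.5 and 92.7, and Mrpl47, at the exit of the peptide tunnel, had 19.6, 28.6 and 30.2. The last pair was already higher in Egln1_Tie2Cre, by 1.43-fold and 1.46-fold. The lowest ratios over Egln1_floxed were -0.22 for Mrps23 and -0.18 for Mrpl48.

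Against Egln1_Tie2Cre, the library labelled Egln1_Hif2a_Tie2Cre had 13 members at least 1.5-fold higher, beside 9.67% of all genes, and 0 at least 1.5-fold lower, beside 9.64%. At 2-fold, 4 were higher (4.31% of all genes) and 0 lower (4.08%). A ratio above 0 was found in 59 of 75 members and in 47.5% of all genes. This comparison shares both libraries with the other comparisons, so it holds no further data. The 13 were 6 Mrpl and 7 Mrps genes. Of the 24 members with a copy 10 were among them, beside 504 of 1331 coding genes with a copy. Of the 51 members without one there were 3 (Mrpl34, Mrps12 and Mrps25), beside 523 of 9873 coding genes without a copy. The median was 0.16 over Mrpl and 0.20 over Mrps genes, and 0.11 and 0.12 without members that have a copy. By exon class the medians of members without a copy were 0.43, 0.16 and 0.01, beside 0.24, 0.12 and -0.12 over coding genes. Mrpl51, Mrps16 and Mrps18b were higher by 1.56-fold, 1.60-fold and 1.64-fold. Mrps16 had 75.9, 62.7 and 100.2 over the libraries in the order Egln1_floxed, Egln1_Tie2Cre and Egln1_Hif2a_Tie2Cre.

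Over the 75 members with a value in each library, 54 were highest in Egln1_Hif2a_Tie2Cre, 14 in Egln1_Tie2Cre and 7 in Egln1_floxed. Egln1_Tie2Cre held the lowest value for 33 members and Egln1_floxed for 36. Both Cre libraries lay above Egln1_floxed for 36 members, 22 Mrpl and 14 Mrps. Without members that have a copy, 34 of 51 were highest in Egln1_Hif2a_Tie2Cre and 19 were lowest in Egln1_Tie2Cre.

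Large and small subunit genes had nearly equal median ratios in all 3 comparisons. The Mrpl median minus the Mrps median was -0.01 for Egln1_Tie2Cre over Egln1_floxed, -0.04 for Egln1_Hif2a_Tie2Cre over Egln1_Tie2Cre and 0.05 for Egln1_Hif2a_Tie2Cre over Egln1_floxed. Without members that have a copy the differences were -0.02, -0.01 and 0.01. The summed FPKM of Mrpl genes was 3068 in Egln1_floxed, 3132 in Egln1_Tie2Cre and 3847 in Egln1_Hif2a_Tie2Cre, and that of Mrps genes was 1418, 1316 and 1830 (1829.9). The lower Mrps sum in Egln1_Tie2Cre rested on members with a copy: those without one summed to 713, 748 and 863, although Mrps23 has no value in Egln1_Tie2Cre.

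Mrpl12, the protein of the large subunit stalk that recruits translation factors, had an FPKM of 118 in Egln1_floxed, 120.4 in Egln1_Tie2Cre and 144 in Egln1_Hif2a_Tie2Cre. Mrpl10, which anchors the stalk, had 28.2, 25.8 and 25.7. Mrpl45, which ties the ribosome to the inner membrane, had 23.7, 26.8 and 26.8. Each of these was within 1.25-fold over all libraries. Mrps12, a protein of the decoding centre, had 41.1, 31.0 and 53.3, so it was 1.72-fold higher in Egln1_Hif2a_Tie2Cre than in Egln1_Tie2Cre while both lay within 1.33-fold of Egln1_floxed.

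Of the members in which inherited defects cause cardiomyopathy in people, Mrpl3 had 46.6 in Egln1_floxed, 64.4 in Egln1_Tie2Cre and 65.5 in Egln1_Hif2a_Tie2Cre. Mrpl44 had 39.9, 35.01 and 39.1, and Mrps22 had 15.8, 18.1 and 16.9. Mrpl3 was higher in both Cre libraries, with a log2 ratio of 0.46 and 0.48 over Egln1_floxed. The other genes stayed within 0.20 of 0 in both.

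The Mrps18 paralogues took different courses. They descend from 1 bacterial protein, and by structure Mrps18b and Mrps18c belong to the small subunit, while Mrps18a belongs to the large. Mrps18a was higher in both Cre libraries, as given above. Mrps18c, which has 2 retrocopies, had 48.6, 71.1 and 61.9 and was highest in Egln1_Tie2Cre. Mrps18b, which has a retrocopy of 99.8% identity over 54.3% of its coding sequence, had 27.2, 18.7 and 30.6 and was lowest there. Mrps30, a further large subunit protein with a small subunit name, had 16.5, 24.3 and 19.3, and it shares an exon with B430218F22Rik. Moving Mrps18a and Mrps30 to the large subunit and leaving out Mrps36 changed none of the medians by 0.1 or more.

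Promoters of 67 members were available from RefSeq (GRCm38.p6) as 300 bases, 250 before and 50 after the start. Motifs were searched on both strands as short letter strings, and a match is a description of letters only. CCGGAAGN, an ETS family site, was in 24 promoters (35.8%), beside 9.90% of all 27025 and 12.9% of coding genes. AAGATGGCG, a YY1 site, was in 8 (11.9%), beside 1.64% and 2.14%. The palindromic NRF1 site was in 3 (4.48%), beside 1.07% and 1.47%, and the same site with any base at its variable middle position, a search that contains the first, was in 12 (17.9%), beside 5.19% and 7.17%. Of the HIF core letters, ACGTG was in 16 (23.9%), beside 21.8% and 23.2%, and GCGTG in 37 (55.2%), beside 35.2% and 41.4%. TCAAGGTCA, an oestrogen-related receptor site, was in 0 of 67, beside 0.466% of all promoters.

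Medians of members with and without these letters lay apart by amounts that varied with the comparison. The 24 members with CCGGAAGN had a median log2 ratio of 0.26 for Egln1_Hif2a_Tie2Cre over Egln1_floxed, and the 43 without it had 0.19. For ACGTG the medians were 0.18 (16 members) and 0.24 (51 members). For Egln1_Tie2Cre over Egln1_floxed they were -0.11 (23 members) and 0.04 (43 members) by CCGGAAGN, and -0.13 (16 members) and 0.04 (50 members) by ACGTG. For Egln1_Hif2a_Tie2Cre over Egln1_Tie2Cre the order was the opposite, with 0.32 and 0.15 by CCGGAAGN and 0.32 and 0.12 by ACGTG, in the same members. The 3 members with the palindromic NRF1 site had -0.07 in that comparison and the 63 without it had 0.26. None of these differences was tested, and the comparisons share libraries. Members with a copy, whose values are uncertain, enter all of these medians, and none was made without them. Of the members 1.5-fold lower in Egln1_Tie2Cre, all with a copy, Mrpl22, Mrpl27, Mrpl48 and Mrps33 hold CCGGAAGN, and Mrpl23 and Mrps36 do not. The 250 bases before the start are printed for Mrps18a and Mrps21 and for the stalk gene Mrpl12. Without centring on length, Mrps18a and Mrps21 were past 1.5-fold in Egln1_Hif2a_Tie2Cre over Egln1_floxed, and Mrpl12 was not. Capitals mark CCGGAAGN in Mrps18a (chr17:46110754-46111003, plus strand) and the looser NRF1 site in Mrps21 (chr3:95871515-95871764, minus strand) and Mrpl12 (chr11:120484387-120484636, plus strand). HIF core letters are not marked, and GCGTG stands in Mrps18a and Mrpl12. The search of the full promoters also found AAGATGGCG in Mrps18a and CCGGAAGN in Mrps21, not wholly within the printed bases.
Mrps18a: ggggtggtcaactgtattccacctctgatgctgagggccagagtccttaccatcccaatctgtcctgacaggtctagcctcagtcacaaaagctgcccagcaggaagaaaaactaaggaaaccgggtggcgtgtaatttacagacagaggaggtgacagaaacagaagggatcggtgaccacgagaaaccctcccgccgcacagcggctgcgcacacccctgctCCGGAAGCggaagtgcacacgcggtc
Mrps21: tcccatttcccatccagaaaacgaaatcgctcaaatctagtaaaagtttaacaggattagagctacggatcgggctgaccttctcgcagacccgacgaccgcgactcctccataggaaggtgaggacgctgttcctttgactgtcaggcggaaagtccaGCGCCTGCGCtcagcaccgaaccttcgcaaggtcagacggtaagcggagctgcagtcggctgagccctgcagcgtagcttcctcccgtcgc
Mrpl12: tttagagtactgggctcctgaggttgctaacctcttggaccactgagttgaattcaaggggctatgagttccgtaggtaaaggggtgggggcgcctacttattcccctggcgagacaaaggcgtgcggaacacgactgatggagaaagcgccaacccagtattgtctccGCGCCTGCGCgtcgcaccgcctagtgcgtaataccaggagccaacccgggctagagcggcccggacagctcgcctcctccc
The same 10 letters stood in the promoters of Mrps21 and Mrpl12, whose ratios of Egln1_Hif2a_Tie2Cre over Egln1_floxed were 0.72 and 0.29.

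Proteins of the mitochondrial ribosome that carry other names had medians above 0 in both Cre libraries. Their median log2 ratio was 0.20 for Egln1_Tie2Cre and 0.39 for Egln1_Hif2a_Tie2Cre over Egln1_floxed (7 genes), with 6 of 7 above 0 in the latter. Dap3, a GTP-binding protein of the small subunit, had 68.4, 93.4 and 89.8 FPKM in the order Egln1_floxed, Egln1_Tie2Cre and Egln1_Hif2a_Tie2Cre. Chchd1 had 89.5, 111 and 138, and Aurkaip1 had 61.1, 64.6 and 82.7. All of these were lowest in Egln1_floxed. Gadd45gip1 had 13.2, 17.2 and 14.0, and Mrp63, a large subunit protein, had 7.85, 6.33 and 11.3. Ptcd3, with 57.4, 45.2 and 52.3, was the gene below 0 in both Cre libraries.

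Genes that serve the ribosome without being part of it lay nearer to 0 or below it in Egln1_Hif2a_Tie2Cre. Over Egln1_floxed the median there was -0.0041 for 13 translation factors, 0.01 for 22 assembly and rRNA modification factors, -0.15 for 20 tRNA synthetases and amidotransferase genes, and 0.02 for 10 genes of mitochondrial DNA replication and transcription. The 11 regulators of mitochondrial biogenesis had -0.16, with 2 above 0. Members without a copy had 0.19 and nuclear respiratory chain genes without a copy 0.34 (55 genes, 48 above 0). Without genes that have a copy, 10 translation factors had -0.03 and 8 mitochondrial DNA genes 0.02. The lists were not centred on transcript length. Over coding genes without a copy, the median of this ratio ran from 0.25 in the shortest of 10 length classes to -0.18 in the longest. The part of length in the differences between lists was not tested.

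Within those lists the genes farthest apart were few. Tufm, the elongation factor that brings tRNA to the ribosome, had 148 in Egln1_floxed, 7.14 in Egln1_Tie2Cre and 139 in Egln1_Hif2a_Tie2Cre, and it has a copy. Guf1, a ribosome-bound GTPase, was the highest translation factor in Egln1_Tie2Cre by ratio, with 10.8, 21.9 and 11.2. Gfm1, an elongation factor, had 112, 139.6 and 84.5, and Taco1, a translational activator of a respiratory chain subunit, had 43.3, 30.2 and 28.4. Fastkd2, which is needed to assemble the large subunit, had 9.94, 17.2 and 15.8, and Rpusd4, a pseudouridine synthase, had 9.05, 5.76 and 6.47. Mterfd1 had 16.6, 21.5 and 25.1, Mterfd2 had 9.32, 6.04 and 10.7, and the protease gene Spg7 had 40.2, 53.6 and 36.7. Guf1 and Fastkd2 were thus both higher in Egln1_Tie2Cre than in Egln1_floxed, and Fastkd2 was high in Egln1_Hif2a_Tie2Cre as well.

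Among tRNA synthetases Lars2 had 128, 72.6 and 110.2 and Nars2 had 6.05, 10.7 and 4.59. Lars2 was lowest, and Nars2 highest, in Egln1_Tie2Cre. Iars2 and Sars2 were lowest in Egln1_Hif2a_Tie2Cre. Iars2 had 31.3 FPKM in Egln1_floxed, 30.1 in Egln1_Tie2Cre and a log2 ratio of -0.55 for Egln1_Hif2a_Tie2Cre over Egln1_floxed, and Sars2 had 6.60, 6.46 and 4.50. Of the mitochondrial DNA genes, the transcription factor Tfb2m, which has a copy, had 22.9, 8.84 and 18.8, the RNA polymerase Polrmt had 8.92, 15.4 and 13.03 and Slirp, which binds mitochondrial mRNA with Lrpprc, had 34.5, 44.3 and 54.5. Lrpprc itself had 61.7, 64.5 and 45.9, so the partners differed in direction in Egln1_Hif2a_Tie2Cre. Of the regulators, the coactivator Ppargc1a had 22.7, 28.5 and 19.5 and the nuclear receptor Esrrb had 8.21, 8.53 and 4.88. The related receptor Esrrg had 9.07, 6.65 and 7.24, and the coactivator Ppargc1b had 8.52, 6.29 and 6.47. Ppargc1a and Esrrb were thus lowest in Egln1_Hif2a_Tie2Cre, and Esrrg and Ppargc1b in Egln1_Tie2Cre.

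**Figure D5:**
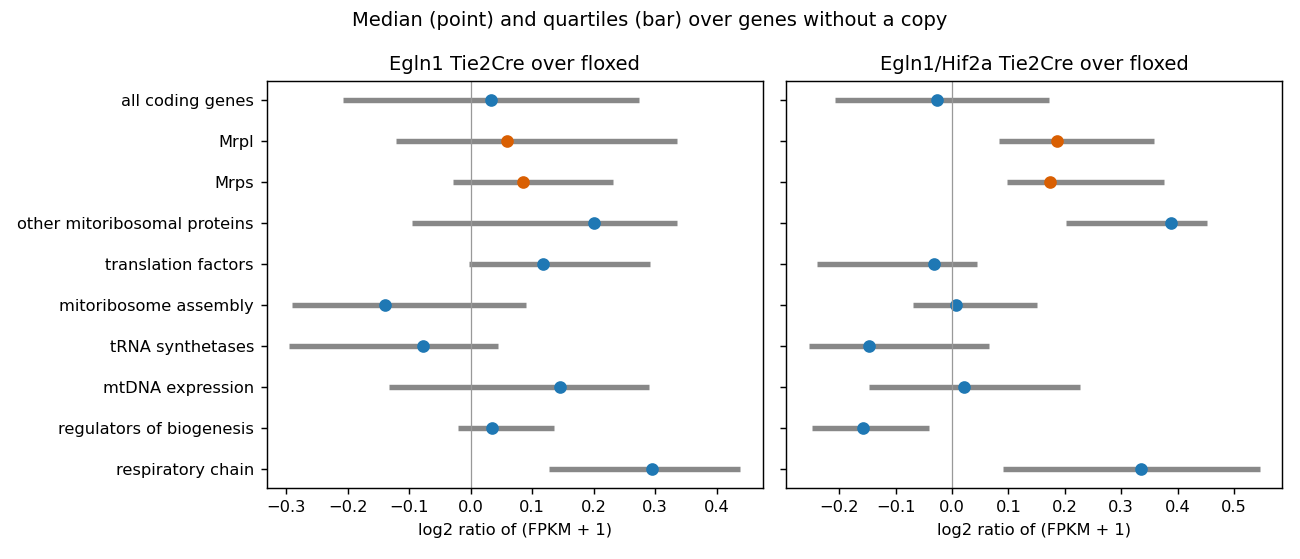
Median (point) and quartiles (bar) of the log2 ratio of FPKM + 1 over genes without a copy, for all coding genes, the Mrpl and Mrps genes (orange) and 7 related lists (blue), in Egln1_Tie2Cre (left) and Egln1_Hif2a_Tie2Cre (right) over Egln1_floxed. On the right Mrpl (0.19), Mrps (0.17), the mitoribosomal proteins of other names (0.39) and the respiratory chain (0.34) lie above all coding genes (-0.03), and the other lists lie at or below 0.02. Ratios are not centred on transcript length.

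The cytosolic ribosome had a far lower median than the members in Egln1_Tie2Cre, and a far larger share of its genes had a copy. Its 77 protein genes had a median log2 ratio of -3.97 for Egln1_Tie2Cre over Egln1_floxed, with 60 at least 1.5-fold lower, and all but 4 of them had a copy. The 4 without a copy had a median of 0.25, beside 0.08 for the 51 members without one. Rpl23a, which has a copy, had 658 FPKM in Egln1_floxed, 0.611 in Egln1_Tie2Cre and 905 in Egln1_Hif2a_Tie2Cre, a wider gap than that of any member. Rps29, which also has a copy, had 954, 2.20 and 1511. Rpl29 and Rpl34 had the highest ratios for Egln1_Hif2a_Tie2Cre over Egln1_floxed, from 92.8 to 340.4 and from 255 to 656.

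Nuclear respiratory chain genes had a median log2 ratio of 0.27 for Egln1_Tie2Cre over Egln1_floxed (89 genes). For Egln1_Hif2a_Tie2Cre over Egln1_floxed it was 0.41 (90 genes), with 83 of 90 above 0. Of these, Cox7a2, a complex IV subunit without a copy, had 240.4 in Egln1_floxed and 453 in Egln1_Hif2a_Tie2Cre. Ndufc1 of complex I, which has a copy, had 201.5 and 404.9. The lowest ratios in Egln1_Tie2Cre were those of Atp5l, with 1295, 12.8 and 1924 in the 3 libraries, and Cox7c, with 1430, 49.6 and 2502; both have a copy.

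Not all of the mRNAs that the mitochondrial ribosome translates had a value. Those that did had a median of -0.65 for Egln1_Tie2Cre (9 genes, all below 0 and 2 of them without a copy) and 0.34 for Egln1_Hif2a_Tie2Cre (8 genes, 6 above 0) over Egln1_floxed. The lowest, both with a copy, were mt-Nd3 with 21465, 9.70 and 46805 FPKM and mt-Co2 with 51974 in Egln1_floxed and 30.0 in Egln1_Tie2Cre. Of the others, mt-Nd4 had 6441 in Egln1_Tie2Cre and 23254 in Egln1_Hif2a_Tie2Cre, and mt-Nd6 had 9669 in Egln1_floxed and 19015 in Egln1_Hif2a_Tie2Cre.

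In the authors' deposited table of each comparison, 0 members had a q-value of 0.05 or less, where 0.465% of all genes did between Egln1_Tie2Cre and Egln1_floxed. That share was 0.571% between the Cre libraries and 0.0135% between Egln1_Hif2a_Tie2Cre and Egln1_floxed. The lowest q-value of a member in the authors' deposited table was 0.377 for Mrps36 in the first and 0.219 for Mrps36 in the second. It was 0.9996 for all 76 members in the last. Those q-values compare pools and not genotypes.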

How the data were processed

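Per the labels, left ventricular RNA of 3 mice per genotype was pooled and sequenced on an Illumina instrument, giving 3 libraries. Reads were handled with TopHat2 and Cuffdiff, per the submitters' processing notes. Their versions, the genome build, the annotation, the strand setting and the treatment of reads with several matches are, in the sources used here, not given. The authors deposited 3 tables, each with 2 libraries. Per the file headers they hold FPKM, a fold (ratio of the FPKM values, not used here) and a q-value. Columns were assigned by the sample titles in each table's name. This was checked on values that recur: FPKM was identical for 14368 of 14369 genes shared by the Egln1_floxed columns, 14489 of 14489 for Egln1_Tie2Cre and 14367 of 14367 for Egln1_Hif2a_Tie2Cre. Depth is unknown.

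The log2 ratio of FPKM + 1 was computed, which understates differences of low genes. Genes averaging 1 FPKM or more in the libraries compared were kept (11978, 11999 and 11888 in the order of the comparisons Egln1_Tie2Cre over Egln1_floxed, Egln1_Hif2a_Tie2Cre over Egln1_Tie2Cre and Egln1_Hif2a_Tie2Cre over Egln1_floxed). Folds beside FPKM values are plain ratios, and the 1.5-fold threshold was applied to the log2 ratio. Of 15503 table genes, 15293 matched GENCODE M21 by ID and 59 by symbol; 75 members matched by ID and Mrpl33 by symbol. Retrocopies were found with BLAST 2.17.0. Tables were handled with Python 3.11.15, pandas 2.3.3 and numpy 2.4.6, and the code was tested on simulated data. Promoters came from RefSeq.

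Members and gene lists were chosen with earlier results of these data known. Values are given for members at least 1.5-fold apart in any comparison, the 3 highest and 3 lowest of each subunit, members of named role, those with a copy listed in the tables, and the 2 genes of each related list with the largest ratio in each comparison; others are named as examples and were chosen after their values were seen. Alternatives tried were a pseudocount of 0.1, no filter or a mean of at least 5, members without a copy only, centring on all genes or on genes of like length, subunit by structure and a 2-fold threshold.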

Additional observations from a re-analysis of the deposited data

How the results depend on the processing

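Medians were held to have moved at a difference of 0.1 on the log2 scale and counts at 1.5 times. A pseudocount of 0.1, dropping the filter, raising it to a mean of 5 and centring on the median of all genes moved none of the medians, counts past 1.5-fold and subunit differences. Values near 0 changed sign under other alternatives, so no direction is read from them. For Egln1_Tie2Cre over Egln1_floxed the Mrps median went from 0.04 to -0.015 without shared exons, and the Mrpl minus Mrps difference of -0.0073 went to 0.021 by structure, 0.018 centred by length and exon number, 0.036 with copies added and 0.090 without shared exons. That difference went from -0.04 to 0.0012 for Egln1_Hif2a_Tie2Cre over Egln1_Tie2Cre centred by length, and from 0.05 to -0.03 for Egln1_Hif2a_Tie2Cre over Egln1_floxed centred by length and exon number. For Egln1_Tie2Cre over Egln1_floxed, the count of members 1.5-fold apart was 8 (6 Mrpl, 2 Mrps); it was 1 (1 and 0) over members without a copy and 4 (2 and 2) at 2-fold. For Egln1_Hif2a_Tie2Cre over Egln1_Tie2Cre it was 13 (6 and 7), 3 (1 and 2) without copies and 4 (2 and 2) at 2-fold. For Egln1_Hif2a_Tie2Cre over Egln1_floxed it was 6 (2 and 4), 3 (1 and 2) without copies and 1 (1 and 0) at 2-fold. Fewer genes enter without copies; the cause was otherwise not tested.

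Centring on genes of like transcript length gave a member median of -0.065 in place of 0.04 (Mrpl -0.065, Mrps -0.065, with 4 Mrps genes apart) for Egln1_Tie2Cre over Egln1_floxed and 0.051 (Mrpl 0.086, Mrps 0.049, with 1 Mrps gene apart) for Egln1_Hif2a_Tie2Cre over Egln1_floxed; the cause was not tested. Subunit by structure left 1 Mrps gene apart in the first comparison. Of 3 alternatives chosen after seeing the data, centring by length and exon number gave 4 Mrps genes apart for Egln1_Tie2Cre over Egln1_floxed, 7 members (3 Mrps) and a subunit difference of -0.15 for Egln1_Hif2a_Tie2Cre over Egln1_Tie2Cre, and an Mrpl median of 0.12 with 1 Mrps gene apart for Egln1_Hif2a_Tie2Cre over Egln1_floxed. Keeping only members with no exon shared with another coding gene gave a subunit difference of -0.14 for Egln1_Hif2a_Tie2Cre over Egln1_Tie2Cre and 1 Mrpl gene apart for Egln1_Hif2a_Tie2Cre over Egln1_floxed. Adding listed retrocopies to their members moved none of these by that measure. It moved 4 ratios of single members: Mrpl23 from -5.33 to -0.21 over Egln1_floxed, and for Egln1_Hif2a_Tie2Cre over Egln1_Tie2Cre Mrpl23 from 5.59 to 0.46, Mrps36 from 2.68 to 1.01 and Mrpl51 from 0.63 to 0.14, which is below 1.5-fold. Mrps36 over Egln1_floxed was kept as it was, since its copy has no value there. Other settings also moved ratios of single members past 1.5-fold by 0.1 or more. A pseudocount of 0.1 moved 4 and left 23, with Mrpl23 over Egln1_floxed going from -5.33 to -6.03. Centring by length moved 21 and left 6, and centring by length and exon number moved 17 and left 10. No paired analysis was possible because each genotype has 1 pooled library. With 1 library a genotype and unknown depth, differences between genotypes and between pools cannot be told apart.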
